A study of Mus musculus with 18 samples.

Results

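The genes described here are 10 members of the Notch pathway: the receptors Notch1, Notch2 and Notch3, the ligands Jag1, Jag2 and Dll4, and the target genes Hes1, Hey1, Heyl and Nrarp. They were taken by symbol from a deposited table of 35667 genes, and all 10 were found. The data are 18 bulk Smart-seq2 libraries from mouse, in 6 groups of 3. HSC (hepatic stellate cells), the vitamin A-storing pericytes of the liver, came from healthy wild-type animals. ICO (intrahepatic cholangiocyte organoids), grown from bile duct epithelium, carried a dTomato tag and served as the progenitor cells. The groups were HSC after 7 days in Matrigel together with ICO (co-cultured HSC), HSC after 7 days in Matrigel alone, HSC after 7 days on plastic, HSC directly after isolation (day 0 HSC), ICO after 7 days in Matrigel with HSC (co-cultured ICO), and ICO after 7 days in Matrigel alone. The labels give the same growth medium for every sample, with serum, B27, N2, EGF, FGF10, HGF and RSPO3, and cells were sorted after 7 days. The sources used here do not give age or sex. Separate animals or organoid lines behind the 3 libraries of a group are not stated, so the p-values reflect only how far these samples spread, and that spread may be technical.

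Notch signalling passes between touching cells. A ligand of the Jagged or Delta-like family on 1 cell binds a receptor on its neighbour, the receptor is cut by ADAM proteases and then by γ-secretase, and its freed intracellular domain enters the nucleus. There it joins the DNA-binding protein RBPJ and Mastermind-like coactivators and switches on target genes, many of which encode repressors of the Hes and Hey families. In the liver, Jag1 and Notch2 are known for their part in bile duct formation, Dll4 and Notch1 for theirs in sinusoidal endothelium, and Notch3 for its expression in pericytes and vascular smooth muscle.

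Promoter sequence was at hand for 7 of the 10 genes, as RefSeq windows of 300 bases on build GRCm38.p6 that run from 250 bases before to 50 bases after the gene's start. Hes1, Hey1 and Heyl had no entry. The 3 windows below belong to genes that differed between HSC groups and are printed 5′ to 3′ on the strand of the gene. Capitals mark CACGTG, the E-box to which factors of the Hey family can bind. They are Nrarp on the plus strand of chr2:25180508-25180807, Notch3 on the minus strand of chr17:32166841-32167140 and Notch1 on the minus strand of chr2:26503773-26504072.
Nrarp: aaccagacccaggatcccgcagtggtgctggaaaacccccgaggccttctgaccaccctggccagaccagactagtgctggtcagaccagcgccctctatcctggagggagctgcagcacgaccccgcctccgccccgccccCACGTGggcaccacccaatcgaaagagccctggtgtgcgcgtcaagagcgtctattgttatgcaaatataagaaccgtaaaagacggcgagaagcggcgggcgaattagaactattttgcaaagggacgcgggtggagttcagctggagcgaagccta
Notch3: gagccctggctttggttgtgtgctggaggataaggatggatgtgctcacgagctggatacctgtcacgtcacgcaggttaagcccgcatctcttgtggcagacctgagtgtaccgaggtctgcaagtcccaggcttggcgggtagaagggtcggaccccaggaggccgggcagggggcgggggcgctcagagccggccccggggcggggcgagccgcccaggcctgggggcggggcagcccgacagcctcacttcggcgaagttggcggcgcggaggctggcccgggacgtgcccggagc
Notch1: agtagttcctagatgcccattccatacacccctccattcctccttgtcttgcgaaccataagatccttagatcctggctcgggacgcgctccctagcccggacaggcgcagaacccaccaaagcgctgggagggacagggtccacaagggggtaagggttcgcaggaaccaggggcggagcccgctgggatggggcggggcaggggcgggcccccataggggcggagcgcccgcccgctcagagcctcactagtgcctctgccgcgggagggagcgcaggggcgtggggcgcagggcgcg
The search covered both strands. CACGTG, which reads the same on both, was found in Nrarp alone of the 7 windows, with its first base 108 bases before the start, and in 7.15% of 32851 promoters of the same length. TGGGAA, the core of the RBPJ site, was in none of the 7 windows and in 25.6% of all promoters. The longer form GTGGGAA, which contains that core, was in none of the 7 and in 6.38% of all promoters. These matches describe letters in a window and give no measure of binding.

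The smallest library was co-cultured HSC replicate 1, with 6907479 counts, and the largest was plastic HSC replicate 2, with 22158674. Levels are CPM (counts scaled to a common library size, with TMM factors), and a level is not compared between genes because it is not divided by gene length. The 10 stellate markers summed to 4893 to 8058 CPM in co-cultured HSC, 18564 to 33636 CPM in HSC alone in Matrigel, 5420 to 9819 CPM on plastic and 60657 to 69541 CPM at day 0, against at most 45.8 CPM in any ICO library. All 10 were detected in each HSC group. HSC libraries from Matrigel also held bile duct transcripts, those labelled as HSC alone included. An organoid share, the median level of 14 cholangiocyte genes relative to the ICO of the same culture, came to 28.8%, 15.6% and 42.0% in co-cultured HSC and 35.0%, 13.4% and 2.73% in HSC alone in Matrigel. It was at most 0.254% on plastic and at day 0, but the 14 genes were chosen for staying below 5 CPM there, so a low share followed from the choice. The full list of 25 cholangiocyte markers summed to 73.9 to 87.2 CPM on plastic and 234 to 267 CPM at day 0. Each ICO library had 18170 CPM or more. The 14 endothelial markers summed to 48.1 to 52.8 CPM in co-cultured HSC, 65.3 to 92.1 CPM in HSC alone in Matrigel, 73.0 to 90.0 CPM on plastic and 1448 to 1477 CPM at day 0. The 12 macrophage markers summed to 123 to 191 CPM in co-cultured HSC, 2372 to 3263 CPM in HSC alone in Matrigel, 96.1 to 461 CPM on plastic and 873 to 919 CPM at day 0. The sum of 10 hepatocyte markers did not exceed 159 CPM in any cultured library, and lay between 15027 and 15816 CPM at day 0.

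Receptors are given first. Notch1 (ENSMUSG00000026923) was highest at day 0, intermediate in HSC alone in Matrigel and lowest in co-cultured HSC and in ICO. Its level was 23.2, 27.0 and 35.9 CPM in co-cultured HSC, 64.3, 88.0 and 89.0 CPM in HSC alone in Matrigel, 33.5, 42.9 and 29.8 CPM on plastic, and 159, 168 and 146 CPM at day 0. Every library of HSC alone in Matrigel lay above every co-cultured and plastic library and below every day 0 library, while the co-cultured and plastic groups overlapped. ICO had 20.5 to 30.7 CPM in either culture, inside or just below the range of co-cultured HSC. Fitted changes are log2 differences ± standard error, and adjusted p-values come from edgeR's quasi-likelihood test with Benjamini-Hochberg adjustment over all genes tested, with a threshold of 0.05. Notch1 in co-cultured HSC was below HSC alone in Matrigel by -1.44 ± 0.19 (adjusted p = 7.17e-05). Against day 0 the difference was -2.41 ± 0.19 in co-culture (adjusted p = 2.48e-07), -0.97 ± 0.18 alone in Matrigel (adjusted p = 0.000917) and -2.09 ± 0.19 on plastic (adjusted p = 6.84e-07). In HSC alone in Matrigel it was above plastic by 1.13 ± 0.18 (adjusted p = 0.000209), and co-culture against plastic did not pass the test (-0.31, adjusted p = 0.195). In these bulk samples fewer cells of a type and less RNA per cell cannot be told apart. The part of the macrophage transcripts, which were also higher in HSC alone in Matrigel than in the other cultured HSC, was not tested.

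Notch2 (ENSMUSG00000027878), a receptor of the biliary epithelium, spanned the narrowest range of the receptors as a ratio of highest to lowest level. HSC libraries spanned 40.4 to 66.9 CPM in co-culture, 52.3 to 59.1 CPM alone in Matrigel, 37.2 to 56.9 CPM on plastic and 69.4 to 81.1 CPM at day 0, so every cultured HSC library was below every day 0 library. The 3 cultured groups overlapped each other. Co-cultured HSC were below day 0 by -0.50 ± 0.19 (adjusted p = 0.0423) and plastic HSC by -0.54 ± 0.19 (adjusted p = 0.0271), whereas HSC alone in Matrigel differed by -0.43 (adjusted p = 0.0911). Both calls are close to the threshold. Co-culture against day 0 ended without co-cultured HSC replicate 1 or 2 or day 0 replicate 3 (adjusted p = 0.112, 0.161 and 0.120; range over alternatives 0.00466 to 0.161) and with a filter of 10 CPM (-0.47 ± 0.20, adjusted p = 0.0509). Plastic against day 0 ended without plastic replicate 3 or day 0 replicate 3 (adjusted p = 0.129 and 0.108; range 0.0063 to 0.129). It also ended with the organoid share subtracted from the Matrigel HSC libraries, at the same size (-0.54 ± 0.25, adjusted p = 0.083). The plastic and day 0 counts were not altered in that fit.

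Notch3 (ENSMUSG00000038146), the receptor of pericytes and smooth muscle, was low in HSC alone in Matrigel and on plastic and higher in co-cultured HSC. Its levels were 3.46, 7.91 and 14.8 CPM in co-cultured HSC (27, 153 and 231 counts), 1.87, 0.791 and 0.504 CPM in HSC alone in Matrigel (28, 12 and 9 counts), 1.06, 2.74 and 1.20 CPM on plastic, and 7.22, 5.45 and 6.59 CPM at day 0. All 3 co-cultured libraries exceeded all libraries of the other cultured HSC, and they spread to both sides of the day 0 values. ICO also expressed Notch3, with 10.3, 7.74 and 12.4 CPM in co-culture and 8.48, 5.45 and 6.79 CPM alone. Co-cultured HSC were above HSC alone in Matrigel by 3.11 ± 0.59 (adjusted p = 0.0014) and above plastic HSC by 2.36 ± 0.56 (adjusted p = 0.00427), and against day 0 the difference was 0.50 ± 0.53 (adjusted p = 0.447). HSC alone in Matrigel were below day 0 by -2.61 ± 0.59 (adjusted p = 0.00314) and plastic HSC by -1.86 ± 0.56 (adjusted p = 0.0111). The plastic difference ended without plastic replicate 1 (adjusted p = 0.0502; range over alternatives 0.000706 to 0.097). With the organoid share subtracted it had about the same size and a wider error (-1.87 ± 0.88, adjusted p = 0.097). Only the Matrigel HSC libraries were subtracted, so the plastic and day 0 counts stayed the same and only the shared fit changed. What the organoid share would give of Notch3 and of the other 9 genes is set beside their levels below.

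**Figure D1:**
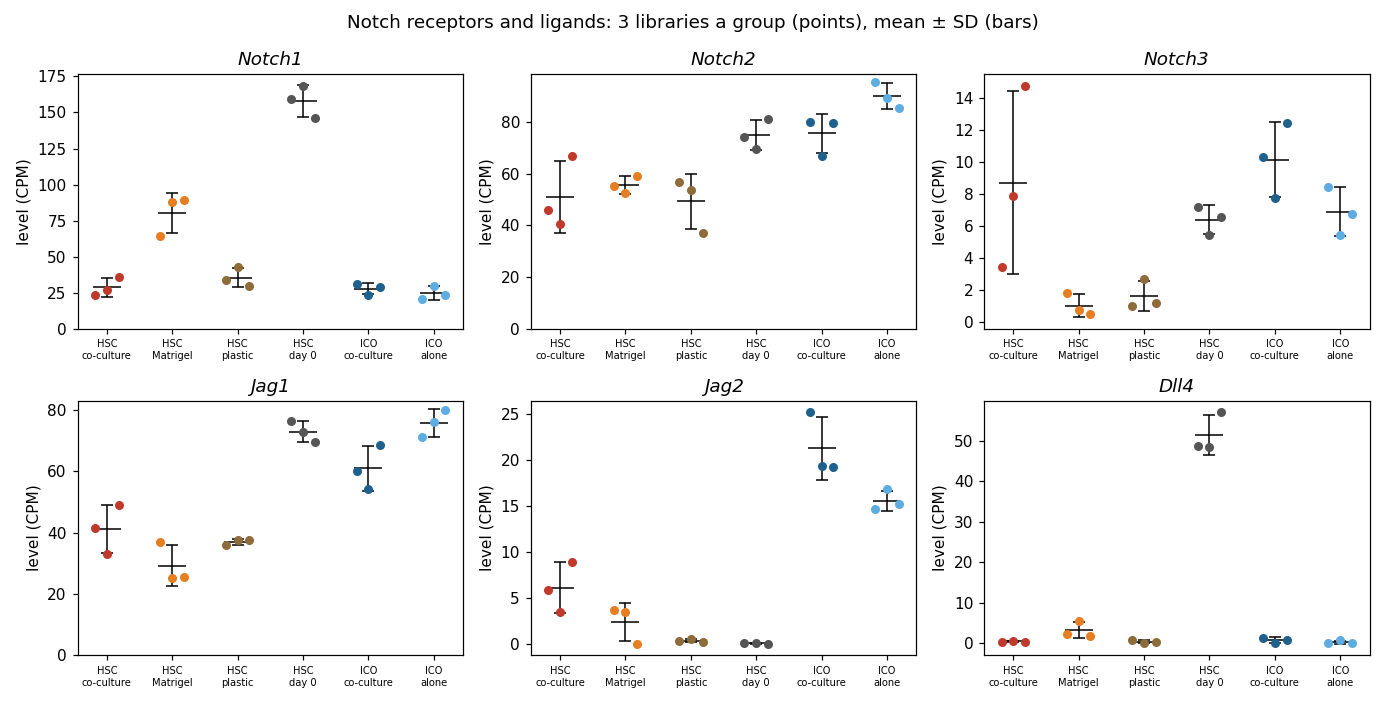
Levels of the 3 receptors and 3 ligands in CPM (linear axes that include 0) in each of the 18 libraries: points are libraries, bars the mean ± SD of 3. Notch1, Jag1 and Dll4 were highest among HSC at day 0, Notch3 in co-cultured HSC lay above the other cultured HSC, and Jag2 was highest in ICO.

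Among the ligands, Jag1 (ENSMUSG00000027276), whose loss causes bile duct paucity in Alagille syndrome, was present in every group. HSC had 41.5, 33.2 and 49.0 CPM in co-culture, 36.8, 25.3 and 25.6 CPM alone in Matrigel, 36.0, 37.5 and 37.5 CPM on plastic and 76.4, 72.8 and 69.7 CPM at day 0. Day 0 stood above all cultured HSC without overlap. Against day 0 Jag1 was lower by -0.77 ± 0.17 in co-culture (adjusted p = 0.00144), -1.32 ± 0.17 alone in Matrigel (adjusted p = 3.73e-05) and -0.92 ± 0.17 on plastic (adjusted p = 0.000317). Co-cultured HSC were above HSC alone in Matrigel by 0.54 ± 0.17 (adjusted p = 0.0238), although 1 library of HSC alone (36.8 CPM) exceeded the lowest co-cultured library (33.2 CPM). That call ended when only these 6 libraries were fitted (adjusted p = 0.142) and without co-cultured replicate 3 (adjusted p = 0.107), or without replicate 2 (adjusted p = 0.104) or 3 (adjusted p = 0.092) of HSC alone in Matrigel; the range over alternatives was 0.00218 to 0.142.

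Jag2 (ENSMUSG00000002799), the second Jagged ligand, was mainly an organoid transcript. HSC had 5.89, 3.47 and 8.96 CPM in co-culture (46, 67 and 140 counts), 3.68, 3.43 and 0 CPM alone in Matrigel (55, 52 and 0 counts), 0.264, 0.480 and 0.180 CPM on plastic (17 counts in all), and 1, 1 and 0 counts at day 0. ICO had 25.2, 19.4 and 19.3 CPM in co-culture and 14.7, 16.8 and 15.3 CPM alone. Among the HSC groups the transcript was thus seen above 0.480 CPM only in Matrigel, and the library with 0 counts there was the 1 with an organoid share of 2.73%. The ratio to day 0 was 124 in co-culture (95% exact interval 34.0 to 1031) and 46.8 alone in Matrigel (95% exact interval 12.7 to 391.8), intervals that cover counting error only. Both differences passed the test (adjusted p = 0.00106 and 0.00792), as did co-culture against plastic (4.23 ± 1.07, adjusted p = 0.00665) and HSC alone in Matrigel against plastic (2.80 ± 1.04, adjusted p = 0.0372). The last of these ended without either Matrigel replicate 1 or 2 or any 1 of the plastic libraries (adjusted p from 0.0658 to 0.113; range over alternatives 0.000384 to 0.113). Co-culture against HSC alone in Matrigel did not pass (1.43 ± 0.91, adjusted p = 0.253).

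Dll4 (ENSMUSG00000027314), the Delta-like ligand known from endothelium, was far higher at day 0 than in any cultured group. Cultured HSC had 0.256, 0.621 and 0.256 CPM in co-culture (2, 12 and 4 counts), 2.34, 5.47 and 1.68 CPM alone in Matrigel (35, 83 and 30 counts), and 0.858, 0 and 0.241 CPM on plastic (13, 0 and 4 counts). Day 0 HSC had 48.6, 48.5 and 57.0 CPM (620, 713 and 831 counts). All 3 libraries of HSC alone in Matrigel lay above all co-cultured and plastic libraries. Against day 0 the fitted difference was -6.90 ± 0.73 in co-culture (adjusted p = 8.74e-06), -4.02 ± 0.58 alone in Matrigel (adjusted p = 0.000206) and -7.16 ± 0.73 on plastic (adjusted p = 5.3e-06). Dll4 in HSC alone in Matrigel was above plastic by 3.14 ± 0.73 (adjusted p = 0.00345), and co-cultured HSC were below HSC alone in Matrigel by -2.88 ± 0.73 (adjusted p = 0.0109). This last call ended without co-cultured replicate 3 (adjusted p = 0.0512; range over alternatives 0.00462 to 0.0512). The endothelial sum was also higher at day 0, at most 92.1 CPM in every cultured HSC library and at least 1448 CPM in every day 0 library. Among cultured HSC it was 48.1 to 52.8 CPM in co-culture, while alone in Matrigel (65.3 to 92.1 CPM) it overlapped plastic (73.0 to 90.0 CPM). Kdr, a vascular endothelial growth factor receptor, had 0.158 CPM in co-cultured HSC and 214 ± 1.27 CPM at day 0. Stab2, a sinusoidal scavenger receptor, was the only 1 of the 14 endothelial markers at 0 in all 3 co-cultured HSC libraries. The part of endothelial transcripts in the Dll4 and Notch1 differences was not tested.

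The target genes did not move as a block. Heyl (ENSMUSG00000032744), a Hey-family repressor expressed in pericytes and smooth muscle, differed widely among the HSC groups. Its levels were 6.14, 19.1 and 10.5 CPM in co-cultured HSC (48, 370 and 164 counts), 1.20, 0.725 and 2.07 CPM in HSC alone in Matrigel (18, 11 and 37 counts), 1.65, 1.20 and 0.842 CPM on plastic, and 128, 123 and 150 CPM at day 0. The day 0, co-cultured and other cultured libraries formed 3 ranges with no overlap, and HSC alone in Matrigel overlapped plastic. Heyl in co-cultured HSC was above HSC alone in Matrigel by 3.20 ± 0.42 (adjusted p = 0.000143) and above plastic by 3.29 ± 0.42 (adjusted p = 9.47e-05), yet below day 0 by -3.41 ± 0.37 (adjusted p = 9.37e-06). HSC alone in Matrigel were below day 0 by -6.60 ± 0.45 (adjusted p = 3.43e-07) and plastic HSC by -6.70 ± 0.45 (adjusted p = 1.57e-07). The 5 activated stellate markers summed to 12181 to 22003 CPM in co-culture, 689 to 917 CPM alone in Matrigel, 7446 to 9532 CPM on plastic and 2022 to 2098 CPM at day 0, and the 4 smooth muscle markers to 172 to 225 CPM in co-culture, 104 to 130 CPM alone in Matrigel, 310 to 359 CPM on plastic and 446 to 455 CPM at day 0. The part of either in the Heyl and Notch3 differences was not tested. In ICO Heyl had 9, 0 and 9 counts in co-culture and 0, 2 and 0 counts alone.

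Nrarp (ENSMUSG00000078202), which encodes a feedback inhibitor that binds the Notch intracellular domain, had its highest group means in ICO. HSC had 10.5, 5.07 and 6.85 CPM in co-culture, 2.88, 4.29 and 1.40 CPM alone in Matrigel, 5, 3 and 0 counts on plastic and 5, 30 and 15 counts at day 0, which is at most 0.330 and 2.04 CPM. ICO had 10.1, 10.2 and 13.0 CPM in co-culture and 13.1, 19.6 and 14.0 CPM alone. All co-cultured libraries lay above all other HSC libraries. Co-cultured HSC were above plastic by 5.51 ± 0.83 (adjusted p = 0.000177) and above day 0 by 2.72 ± 0.68 (adjusted p = 0.00391). With the organoid share subtracted the day 0 difference was 2.43 ± 1.06, of similar size with a wider error, and no longer passed (adjusted p = 0.079; range over alternatives 0.000113 to 0.079). Against HSC alone in Matrigel the difference was 1.44 ± 0.63 (adjusted p = 0.102), and it passed with all 18 libraries in 1 fit (1.42 ± 0.49, adjusted p = 0.0307; range over alternatives 0.0307 to 0.254). HSC alone in Matrigel were above plastic by 4.08 ± 0.82 (adjusted p = 0.000973), or by 2.84 ± 1.21 with the organoid share subtracted (adjusted p = 0.0692; range over alternatives 1.35e-06 to 0.0692), and did not pass against day 0 (1.29 ± 0.66, adjusted p = 0.138). Plastic was below day 0 by -2.79 ± 0.84 (adjusted p = 0.0111), a call that ended without day 0 replicate 2 (adjusted p = 0.0612; range over alternatives 0.00123 to 0.074). With the share subtracted from the Matrigel HSC libraries it was -2.77 ± 1.21 (adjusted p = 0.074), again about the same size with a wider error. The plastic and day 0 counts were unaltered there too.

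Hes1 (ENSMUSG00000022528), the most widely expressed Hes repressor, did not pass the test in any of the 6 comparisons among HSC groups, with fitted differences between -0.23 and 0.37 and adjusted p between 0.135 and 0.756. HSC spanned 207 to 357 CPM in co-culture, 182 to 254 CPM alone in Matrigel, 221 to 265 CPM on plastic and 236 to 255 CPM at day 0. All 4 ranges overlapped. ICO had 608 to 679 CPM in co-culture and 459 to 643 CPM alone, above every HSC library.

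Hey1 (ENSMUSG00000040289), a second Hey repressor, was lower in co-cultured HSC than in HSC alone in Matrigel, the comparison in which Heyl was higher. HSC had 2.69, 4.24 and 2.11 CPM in co-culture, 5.62, 10.1 and 7.67 CPM alone in Matrigel, 3.50, 6.10 and 3.85 CPM on plastic and 11.7, 6.67 and 7.82 CPM at day 0, with ICO at 0.200 to 1.71 CPM. Co-cultured HSC were below HSC alone in Matrigel by -1.31 ± 0.37 (adjusted p = 0.016) and below day 0 by -1.47 ± 0.37 (adjusted p = 0.00445), with no overlap in either case. Without co-cultured replicate 3 or Matrigel replicate 2 the first of these no longer passed (adjusted p = 0.0647 and 0.0756; range over alternatives 0.00299 to 0.0756). Plastic was below day 0 by -0.89 ± 0.36 (adjusted p = 0.048), and that call ended in 4 of 6 fits that left out 1 library, those without plastic replicate 1 or 3 or day 0 replicate 1 or 3 (adjusted p from 0.0761 to 0.182; range over alternatives 0.0184 to 0.182). It also ended without the low-count filter (adjusted p = 0.0571) and with all 18 libraries in 1 fit (adjusted p = 0.0827). HSC alone in Matrigel against day 0 gave -0.15 (adjusted p = 0.756).

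**Figure D2:**
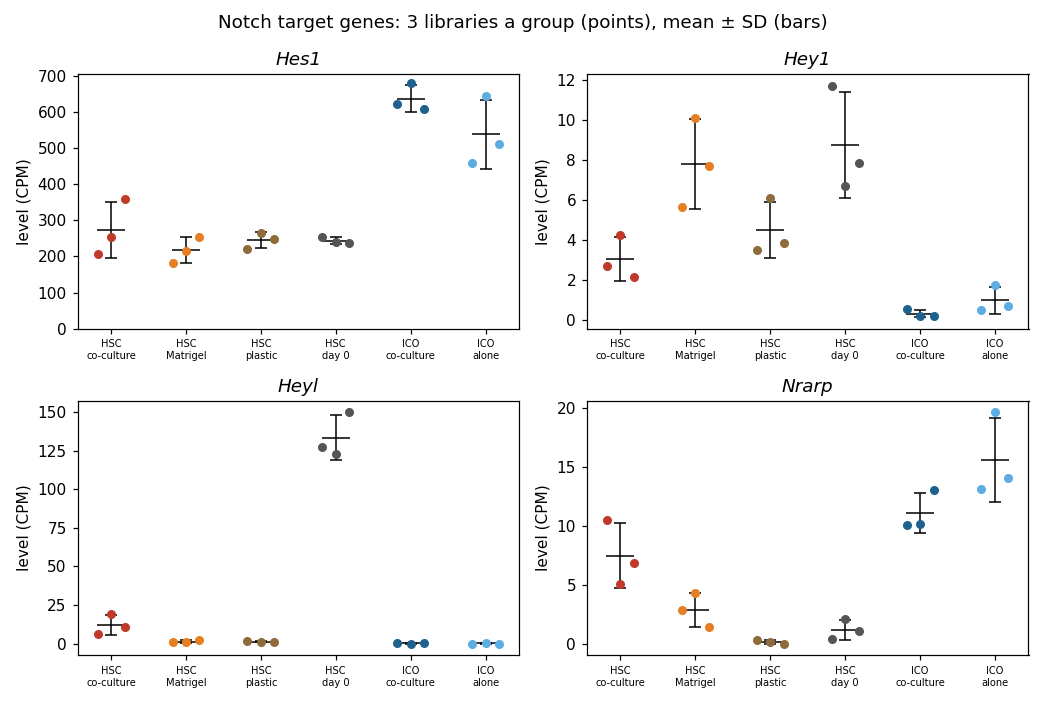
Levels of the 4 target genes in CPM (linear axes that include 0) in each of the 18 libraries: points are libraries, bars the mean ± SD of 3. Heyl was highest at day 0 and rose above the other cultured HSC in co-culture, Hey1 was lower in co-culture than alone, and Hes1 overlapped among all HSC groups.

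Because the Matrigel HSC libraries held organoid transcripts, the level that the organoid share alone would give was set beside each measured level, using the mean ICO level of the same culture. For Heyl the share would give at most 1.51% of the measured level in any of the 6 libraries, and after subtraction the co-culture difference was 3.40 ± 0.38 (adjusted p = 3.07e-05). For Notch3 it would give 2.93, 1.59 and 4.27 CPM in co-cultured HSC, where 3.46, 7.91 and 14.8 CPM were measured, and 2.42, 0.926 and 0.189 CPM in HSC alone in Matrigel, where 1.87, 0.791 and 0.504 CPM were measured. The Notch3 level left over was thus 0.526 to 10.5 CPM in co-culture and at most 0.315 CPM alone, and the fitted difference after subtraction was 5.94 ± 1.17 (adjusted p = 0.00192). With so few counts left alone in Matrigel, that fitted size is uncertain. In co-cultured HSC replicate 1 the highest single-gene ratio would give 4.503 CPM, above the 3.46 CPM measured, while in replicates 2 and 3 it would give 2.18 and 4.58 CPM, below the 7.91 and 14.8 CPM measured. Leaving out 1 library at a time without subtraction, the difference ranged from 2.50 to 3.80 for Notch3 and from 2.69 to 3.71 for Heyl, and both kept their call. Against plastic, Notch3 in co-cultured HSC no longer passed after subtraction (2.40 ± 0.90, adjusted p = 0.0589; range over alternatives 0.000196 to 0.0589).

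For Jag2 the share gave 6.14, 3.32 and 8.95 CPM in co-cultured HSC, against measured values of 5.89, 3.47 and 8.96 CPM, and 5.45, 2.09 and 0.426 CPM in HSC alone in Matrigel, against 3.68, 3.43 and 0 CPM. In co-culture this was 95.9% to 104% of the measured level. The estimate carries the spread of the 14 genes behind it, whose single ratios ran from 19.7% to 44.3%, 12.4% to 21.4% and 36.3% to 45.0% in co-cultured HSC and from 25.1% to 57.6%, 9.97% to 15.4% and 0.596% to 7.18% in HSC alone in Matrigel. Over those ratios the Jag2 level given by the share would be 4.18 to 9.44, 2.65 to 4.56 and 7.74 to 9.59 CPM in co-cultured HSC, each range enclosing the measured level. By this estimate, Jag2 of HSC beyond the organoid share was therefore not detectable in co-culture. In HSC alone in Matrigel the ranges were 3.92 to 8.98, 1.55 to 2.41 and 0.0929 to 1.12 CPM. There the measured level lay below the range in replicates 1 and 3 and above it in replicate 2. For Hes1 the share was 39.1% to 88.6% of the level in co-cultured HSC and 5.78% to 103% in HSC alone in Matrigel. For Nrarp it was 30.5% to 68.1% in co-cultured HSC, leaving 2.19 to 7.30 CPM, and 30.4% to 190% alone in Matrigel, where it left -2.57 to 2.20 CPM and exceeded the measured level in replicate 1. For Jag1 it was 28.7% to 52.2% in co-cultured HSC, leaving 23.4 to 23.9 CPM, and 8.07% to 71.9% alone. Notch2 had 29.2% to 47.5% in co-culture, leaving 24.2 to 35.1 CPM, and 4.16% to 57.2% alone, leaving 23.6 to 56.6 CPM. Dll4, with few counts in co-culture, had 18.1% to 119% there and 0.338% to 3.10% alone, and for Hey1 the share was at most 6.12% in either culture. For Notch1 it was 16.0% to 34.4% in co-culture and 0.756% to 13.4% alone, and the co-culture difference kept its call and sign after subtraction.

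**Figure D3:**
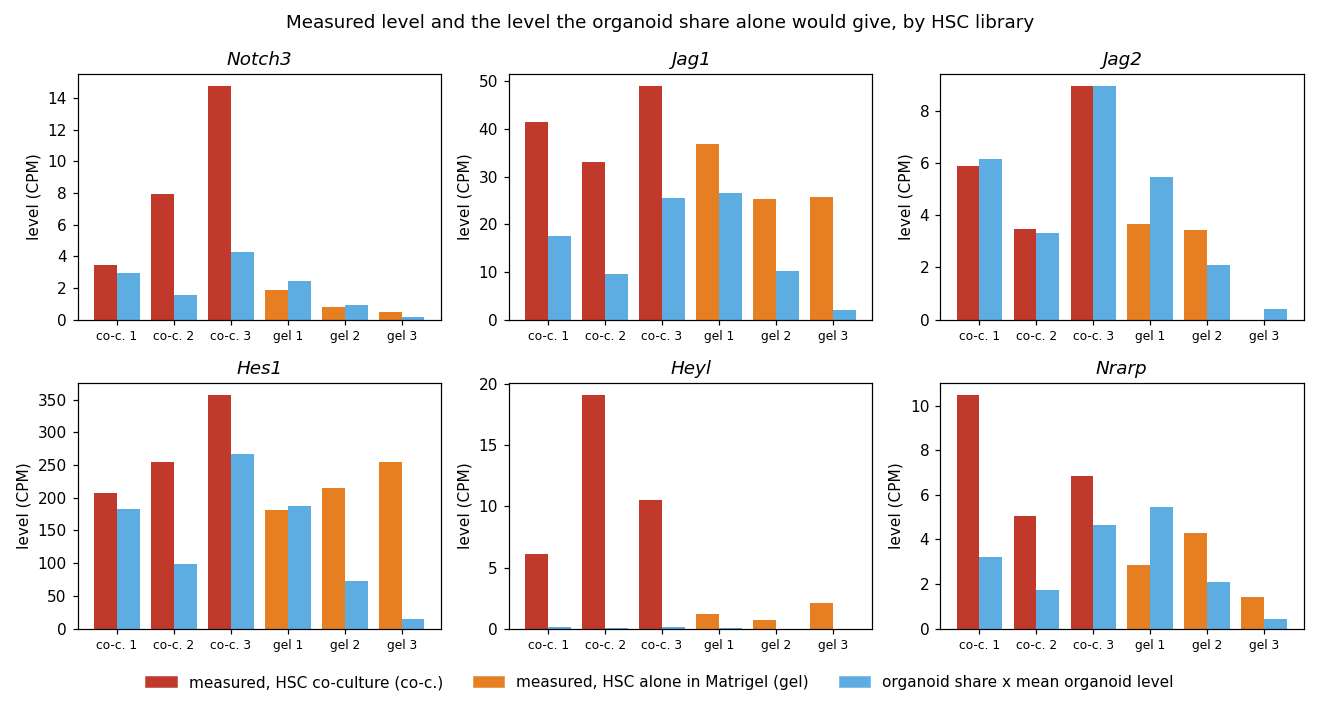
Measured level of Notch3, Jag2, Heyl, Hes1, Jag1 and Nrarp (CPM) in the 6 Matrigel HSC libraries beside the level that the organoid share of that library would give. Measured Jag2 in co-cultured HSC sits at the share level (95.9% to 104%), while Heyl stands far above it.

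Counts of members were read against all genes tested, since large parts of the transcriptome differed between most groups. On plastic against day 0, 8 of 10 members were lower and 0 higher, where 58% of 17020 genes passed edgeR's test in either direction and 30.5% were lower. At an unadjusted p under 0.05, and by DESeq2, 0 members were higher too. The median of the 10 was -1.39, against -0.10 over all genes. In HSC alone in Matrigel against day 0, 1 was higher and 5 were lower, with 40.8% of genes called. Co-culture against day 0 had 2 higher (Jag2 and Nrarp) and 6 lower, with 53.7% of genes called. The comparison of HSC alone in Matrigel with plastic gave 4 higher (Notch1, Jag2, Dll4 and Nrarp) and 0 lower, with 55% of genes called by edgeR; 1 was lower at an unadjusted p under 0.05 and by DESeq2, namely Jag1. With the organoid share subtracted, Notch3 (-3.54 ± 1.15, adjusted p = 0.0229) and Jag1 (-0.97 ± 0.17, adjusted p = 0.000601) were lower in HSC alone in Matrigel than on plastic and Hey1 was higher (1.00 ± 0.34, adjusted p = 0.0283), while none of the 3 passed edgeR's test in the counts as deposited. Co-culture against plastic gave 4 higher (Notch3, Jag2, Heyl and Nrarp) and 0 lower, with 42.5% called, and 0 lower also at an unadjusted p under 0.05 and by DESeq2. Co-culture against HSC alone in Matrigel had 3 higher (Notch3, Jag1 and Heyl) and 3 lower (Notch1, Dll4 and Hey1), with 31.1% of genes called; the members' median was 0.46 and that of all genes 0.03. By direction, the genes called against day 0 were 3279 higher and 3667 lower alone in Matrigel, and 4917 higher and 4223 lower in co-culture. Against plastic they were 5081 higher and 4283 lower alone in Matrigel, and 3901 higher and 3338 lower in co-culture. Co-culture against HSC alone in Matrigel had 2949 higher and 2341 lower. These comparisons share libraries, those with day 0 as control in particular, and are not independent of each other.

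**Figure D4:**
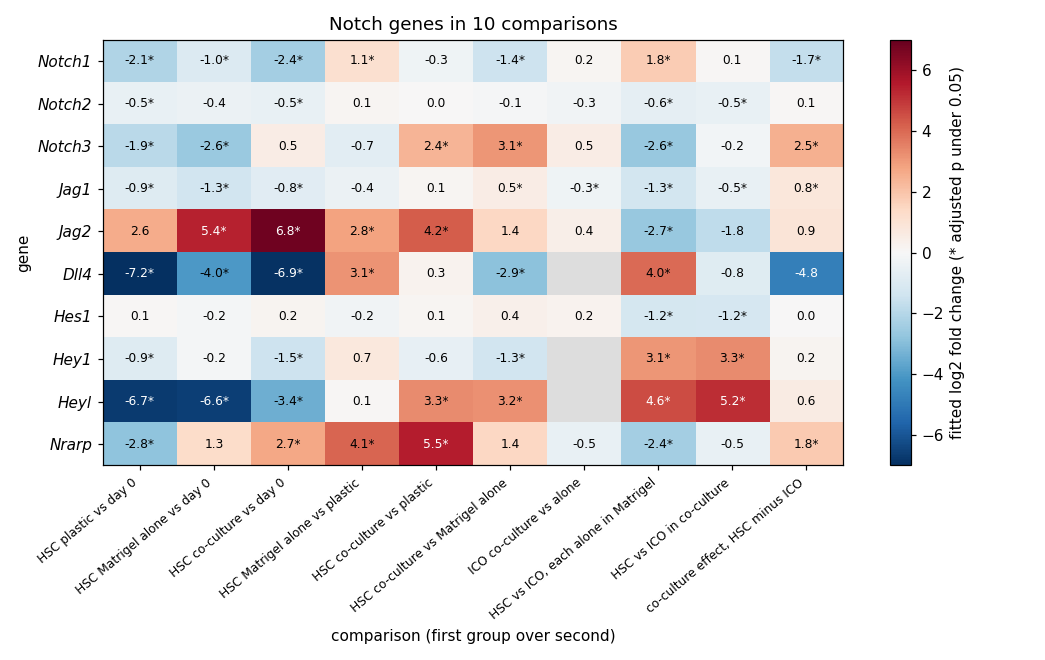
Heat map of fitted log2 fold changes (colour and printed value, first group over second) of the 10 genes (rows) in the 10 comparisons (columns). An asterisk marks an adjusted p under 0.05 and grey an untested gene; Heyl was above 0 in co-cultured HSC against both other cultures and below 0 in all 3 cultures against day 0, and the values of Jag2 and Heyl against groups with 2 counts are uncertain in size.

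The organoids were compared with and without HSC in the gel. Of 7 members with enough counts to test, Jag1 alone passed and was lower, where 16.6% of 13726 genes were called. Jag1 was 60.0, 54.1 and 68.7 CPM in co-cultured ICO and 71.1, 76.2 and 79.9 CPM in ICO alone, with no overlap, and the fitted difference was -0.33 ± 0.10 (adjusted p = 0.0363). The call ended without co-cultured replicate 1 or 2 or any 1 library of ICO alone (adjusted p from 0.0554 to 0.130), and with all 18 libraries fitted together it was 0.333; the range over alternatives was 0.0186 to 0.333. Notch2 (-0.27 ± 0.10, adjusted p = 0.0653), Jag2 (0.44 ± 0.16, adjusted p = 0.076) and Nrarp (-0.50 ± 0.20, adjusted p = 0.0927) were next, and Notch1, Notch3 and Hes1 had adjusted p between 0.139 and 0.57. Dll4, Hey1 and Heyl had too few counts in ICO to be tested.

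HSC and ICO, each alone in Matrigel, differed in all 10 members, where 56.7% of 16233 genes were called. The groups overlapped in none of the 10, and in 68.2% of all genes tested they did not overlap either. Notch1 (1.79 ± 0.20, adjusted p = 9.72e-06), Dll4 (3.98 ± 1.21, adjusted p = 0.0144), Hey1 (3.10 ± 0.53, adjusted p = 0.000327) and Heyl were higher in HSC. For Heyl, with 66 counts in HSC and 2 in ICO, the ratio was 26.7 (95% exact interval 7.10 to 225, counting error only; adjusted p = 0.00321). Dll4 no longer passed without Matrigel HSC replicate 2 or ICO alone replicate 3 (adjusted p = 0.0584 and 0.0504; range over alternatives 0.00375 to 0.0584). Lower in HSC were Notch2 by -0.62 ± 0.16, Notch3 by -2.65 ± 0.53, Jag1 by -1.30 ± 0.17, Jag2 by -2.65 ± 0.80, Hes1 by -1.23 ± 0.19 and Nrarp by -2.36 ± 0.39, with adjusted p between 4.2e-05 and 0.0169. With the organoid share subtracted the Hes1 difference was larger but far less certain, at -1.94 ± 1.39, and did not pass (adjusted p = 0.258; range over alternatives 6.1e-08 to 0.258). In HSC alone in Matrigel replicate 1 the share was 103% of the measured Hes1 level, so that library kept no Hes1 counts after subtraction.

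Between the cell types taken from the same co-culture, 5 of 10 members passed, where 39.6% of genes were called. Hey1 (3.31 ± 0.58, adjusted p = 0.000625) and Heyl (5.17 ± 0.77, adjusted p = 0.000187) were higher in HSC, and Hes1 (-1.18 ± 0.19, adjusted p = 0.000376), Notch2 (-0.52 ± 0.16, adjusted p = 0.019) and Jag1 (-0.52 ± 0.17, adjusted p = 0.0269) were lower. Of these, Hes1 with the organoid share subtracted was at a larger -2.37 ± 1.42 and did not pass (adjusted p = 0.196; range over alternatives 2.12e-07 to 0.196). The library of HSC alone in Matrigel that kept no Hes1 counts was part of that fit. Leaving out 1 library ended Notch2 in 4 of 6 fits, all but those without co-cultured HSC replicate 3 or ICO replicate 2, and Jag1 in 3 of 6, those without co-cultured HSC replicate 2 or ICO replicate 1 or 3 (ranges over alternatives 0.000648 to 0.0797 and 0.00262 to 0.112). Notch1 (0.10, adjusted p = 0.708), Notch3 (-0.17, adjusted p = 0.798) and Nrarp (-0.54, adjusted p = 0.265) did not pass, and neither did Dll4 (-0.83, adjusted p = 0.587). Jag2 was at -1.76 ± 0.75 (adjusted p = 0.0876) although the groups did not overlap. It passed with all 18 libraries in 1 fit (-1.87 ± 0.65, adjusted p = 0.0293) and with the organoid share subtracted (-7.71 ± 1.20, adjusted p = 0.000353). The share was about the whole measured Jag2 level, so almost no counts were left. The pass after subtraction therefore followed from the subtraction itself, and its size is uncertain. The range over alternatives was 0.000353 to 0.232.

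Whether co-culture moved a gene differently in HSC than in ICO was tested as the difference of the 2 effects. Notch1 (-1.69 ± 0.28, adjusted p = 0.00141), Notch3 (2.48 ± 0.70, adjusted p = 0.0285), Jag1 (0.78 ± 0.24, adjusted p = 0.0399) and Nrarp (1.83 ± 0.53, adjusted p = 0.0329) passed, where 17.2% of genes were called. Of 12 fits that each left out 1 library, the call ended in none for Notch1, in 7 for Notch3, in 9 for Jag1 and in 6 for Nrarp. Fits without co-cultured HSC replicate 2, HSC alone in Matrigel replicate 1 or co-cultured ICO replicate 3 kept all 4 calls. Notch3 also kept its call without co-cultured HSC replicate 1 or ICO alone replicate 2, and Nrarp without co-cultured HSC replicate 3, HSC alone in Matrigel replicate 2 or ICO alone replicate 1. Over all alternatives the adjusted p reached 0.0763 for Notch3, 0.111 for Jag1 and 0.0822 for Nrarp. Heyl did not pass (0.60 ± 2.45, adjusted p = 0.906), with 2 counts in all for ICO alone, and Dll4 gave -4.81 ± 1.66 (adjusted p = 0.0662).

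Beyond the 10 members, 58 genes in 7 lists covered the rest of the pathway: other receptors and ligands, ligand endocytosis, receptor glycosylation, receptor cleavage, the nuclear complex, receptor turnover and other targets. Of 54 tested in HSC, 4 were higher and 26 lower on plastic than at day 0, which is 55.6% called beside 58% of all genes. Alone in Matrigel against day 0, 8 were higher and 17 lower (46.3% beside 40.8%), and in co-culture against day 0, 10 were higher and 20 lower (55.6% beside 53.7%). Against plastic, 18 were higher and 10 lower both alone in Matrigel and in co-culture (51.9% each, beside 55% and 42.5%). Co-culture against HSC alone in Matrigel had 5 higher and 7 lower (22.2% beside 31.1%). Rbpj, the DNA-binding partner of every Notch receptor, passed in no comparison among HSC groups (adjusted p between 0.11 and 0.934), with group means between 47.7 and 59.1 CPM.

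In co-cultured HSC against HSC alone in Matrigel, Neurl3, a Neuralized-family ubiquitin ligase, was lower by -2.27 ± 0.27 (13.2 against 65.8 CPM, adjusted p = 4.23e-05). Psen2, a catalytic subunit of γ-secretase, was lower by -1.73 ± 0.17 (18.02 against 61.5 CPM, adjusted p = 5.45e-06), and Tle2, a Groucho-family corepressor, by -1.64 ± 0.21 (11.6 against 37.4 CPM, adjusted p = 6.41e-05). Dtx3, a Deltex-family ubiquitin ligase, was lower by -0.66 ± 0.19 (47.4 against 77.1 CPM, adjusted p = 0.0204). Bhlhe40, a basic helix-loop-helix repressor that also responds to many signals other than Notch, was higher by 1.74 ± 0.16 (444 against 137 CPM, adjusted p = 3.96e-06). The ICO comparison moved Bhlhe40 the same way (0.83 ± 0.09, 582 against 323 CPM, adjusted p = 5.58e-06), and the difference of the effects passed the test (0.81 ± 0.17, adjusted p = 0.00547). ICO had 4 list genes higher and 4 lower in co-culture, of 48 tested, or 16.7% beside 16.6% of all genes. Among them Hdac1, a histone deacetylase, was lower at 140 against 192 CPM (adjusted p = 0.00193) and Dtx4, another Deltex ligase, at 34.1 against 52.9 CPM (adjusted p = 0.000522).

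On plastic against day 0, the genes lower by the most within their lists included Neurl3 (36.6 against 131 CPM), the coactivator Maml3 (5.05 against 28.4 CPM, adjusted p = 1.4e-06), Dtx4 (4.13 against 26.4 CPM, adjusted p = 2.55e-06) and Hes6, a Hes-family member (19.3 against 41.5 CPM, adjusted p = 0.0012). All 5 ligand endocytosis genes were lower there, as were 2 of the 10 receptor cleavage genes, Psen2 among them, where 30.5% of all genes were lower. Sox9, a biliary transcription factor that Notch can induce, was higher in both Matrigel groups: 66.8 ± 44.1 CPM in co-cultured HSC and 53.7 ± 3.79 CPM in HSC alone in Matrigel, against 1.14 ± 0.584 CPM at day 0 (adjusted p = 2.35e-06 and 7.05e-06). ICO had 212 ± 11.5 CPM in co-culture and 199 ± 25.5 CPM alone. The organoid share would give 95.8% and 126% of the Sox9 in co-cultured HSC replicates 2 and 1 and 76.2% in replicate 3, and 120%, 52.7% and 10.3% of that in HSC alone in Matrigel replicates 1, 2 and 3. In the HSC library with an organoid share of 2.73%, Sox9 was 52.6 CPM, and the share would give 5.45 CPM.

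Genes most like each member over the 18 libraries were sought by Pearson's r of log2(CPM + 1) among 11185 genes with at least 10 CPM in some group, as a description with no test. Libraries of a group share cell type and culture. Heyl was most like Sardh (r = 0.985), Serpina3c (0.982) and Nags (0.972), and Dll4 most like Adgre4 (0.987) and Hacl1 (0.980). Their day 0 means ran from 14.2 CPM for Nags to 222 CPM for Sardh. The part of hepatocyte transcripts, which were also highest at day 0, in the Heyl and Dll4 differences was not tested. Notch1 was most like Ifi208 (0.986), Mxd4 (0.982) and Gfap (0.979), the last a stellate marker gene. Jag2 was most like Atp10b (0.994), Smox (0.993) and Cxcl17 (0.993), and Nrarp most like Plet1 (0.969), Celsr1 (0.966) and Odad1 (0.965). Values for Jag1 (Mycn, 0.959), Hes1 (Actr2, 0.948), Notch3 (Trabd, 0.920) and Notch2 (Tmf1, 0.900) were lower, and Hey1, under 10 CPM in every group, was not searched. Among the members themselves the highest were Jag2 with Nrarp (0.926) and Notch1 with Dll4 (0.919), the lowest was Jag2 with Hey1 (-0.860), and Notch3 with Heyl had 0.195 over all 18 libraries.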

How the data were processed

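Bulk RNA from 18 libraries was sequenced after Smart-seq2 amplification, per the labels' protocols. The table the authors deposited holds estimated counts. Build GRCm39, kallisto 0.46.1 and DESeq2 1.36.0 are named, without their roles, in the submitters' processing notes, and the annotation and filters are not given there. After rounding to whole numbers, the counts went into edgeR 4.0.16 (R 4.3.3) with its robust quasi-likelihood fit, TMM factors, filterByExpr and Benjamini-Hochberg adjustment over all genes tested, which was checked on simulated data. The 6 HSC comparisons came from 1 fit of 12 libraries, the ICO comparison from 6, and those across cell types from the 12 Matrigel libraries. Standard errors were computed as |log2 change| over √F of the test. Where a group held 1 to 3 counts, a ratio with an exact 95% interval replaces the fitted change. Amplified reads carry no molecular identifiers, so intervals cover counting error only. Of rows that share a symbol, the one with most counts was used.

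The organoid share rests on cholangiocyte genes that reach 100 CPM in co-cultured ICO and in ICO alone and stay below 5 CPM in each plastic and day 0 library. The members, gene lists, tests and alternatives were chosen with earlier results of these data known. All 10 members are named whatever their result. From each other list the called gene with the largest change was eligible, if it reached 10 CPM in the higher group. Promoter sequences are from RefSeq, of a build other than that of the counts. Alternatives were RLE scaling, DESeq2 1.42.0, no low-count filter, a filter of 10 CPM, a replicate block, fits of only the compared or of all 18 libraries, subtraction of the organoid share, and leaving out each library in turn. Subtraction altered only the Matrigel HSC libraries, and no count was allowed to turn negative. Subtraction in the comparisons across cell types was added after the data were seen. One gene among those most like a member is not reported here.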

Additional observations from a re-analysis of the deposited data

Results flagged for a closer look

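The response to co-culture differed between the cell types for 4 of the 10 genes, by a test of the difference itself (edgeR's quasi-likelihood test, log2 effect in HSC minus effect in ICO, with both effects taken from the fit of the 12 Matrigel libraries that tests the difference, so that they depart a little from those of the separate comparisons). In the same test 17.2% of 16233 genes were called. For Notch1 the difference was -1.69 ± 0.28 (adjusted p = 0.00141): its effect was -1.54 in HSC and 0.15 in ICO. Notch3 differed by 2.48 ± 0.70 (adjusted p = 0.0285), with effects of 3.02 in HSC and 0.54 in ICO. Jag1 differed by 0.78 ± 0.24 (adjusted p = 0.0399), with effects of 0.45 in HSC and -0.33 in ICO. Nrarp differed by 1.83 ± 0.53 (adjusted p = 0.0329), with effects of 1.32 in HSC and -0.50 in ICO; Nrarp passed in neither of the separate comparisons. Of fits that left out 1 library each, the range of the difference was -1.86 to -1.56 for Notch1, 1.90 to 3.19 for Notch3, 0.65 to 0.99 for Jag1 and 1.48 to 2.28 for Nrarp, and the adjusted p reached 0.00562, 0.0763, 0.111 and 0.0822 in that order. The organoid share and macrophage sums given above differ among the same HSC libraries. With the organoid share subtracted the Nrarp difference was 2.73 ± 0.997 and no longer passed (adjusted p = 0.0735), while Notch1, Notch3 and Jag1 kept their calls. The part of the macrophage transcripts was not tested.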

How the results depend on the processing

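Of 97 tested differences of the 10 genes, 56 passed the threshold. Among 762 values of these under the alternatives 0 changed sign, and 35 of the 56 kept their call in every alternative that tested them. A gene that a filter removed from an alternative was not counted there. In the HSC fits Jag2 went untested with the filter of 10 CPM and with the organoid share subtracted. The 35 calls include Notch1 and Heyl wherever they passed and Dll4 and Jag1 against day 0. Notch3 in co-cultured HSC against HSC alone in Matrigel is also among them, though untested with the filter of 10 CPM. Among 571 values of differences that did not pass, 39 changed sign and 21 passed; the cause was not tested. Those that passed include Jag1 in HSC alone in Matrigel against plastic (-0.42 with RLE scaling, -0.45 without the low-count filter, -0.43 by DESeq2 and with all 18 libraries) and Dll4 in the difference of effects (-4.90 by DESeq2). For Notch2 in co-cultured HSC against plastic the log2 difference was -0.0037 with RLE scaling, -0.0037 without the low-count filter, -0.012 by DESeq2 and -0.19 with the organoid share subtracted. Subtraction also gave 0.11 for Hey1 and -0.10 for Notch2 in HSC alone in Matrigel, against day 0 and against plastic. For co-cultured HSC it gave -0.90 for Hes1 against day 0, -0.11 for Jag1, -0.17 for Dll4 and -0.97 for Hes1 against plastic, -0.11 for Hes1 against HSC alone in Matrigel, and -2.81 for Jag2 and -0.43 for Hes1 in the difference of co-culture effects. After subtraction HSC alone in Matrigel replicate 1 kept no Hes1 counts, and that library was part of each of these fits. With all 18 libraries in 1 fit Notch1 in co-culture, HSC against ICO, was -0.0098.

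Counts of members called were lower with a filter of 10 CPM: 5 instead of 8 on plastic against day 0, 4 instead of 8 in co-culture against day 0 (Notch2, still tested, had adjusted p = 0.0509), 2 instead of 4 alone in Matrigel against plastic and 1 instead of 4 in co-culture against plastic, while ICO had 2 instead of 1. In the HSC fits that filter removed Notch3, Jag2, Hey1 and Nrarp, whose HSC group means were all under 10 CPM, so these genes were not tested. With the share subtracted from the Matrigel HSC libraries, members called were 5 on plastic against day 0, where the counts themselves were unchanged. In co-culture against plastic they were 2. Jag2 then fell below the filter. All genes called in co-cultured HSC against HSC alone in Matrigel numbered 3453 when only those libraries were fitted, instead of 5290. In ICO they numbered 546 instead of 2272, and members 0, with all 18 libraries.

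Leaving out 1 library each gave these ranges. Members called ranged 3 to 7 in co-cultured HSC against HSC alone in Matrigel, 0 to 1 in ICO (all genes 1427 to 1948), 3 to 5 between HSC and ICO in co-culture and 1 to 4 for the difference of effects. The log2 difference in co-cultured HSC against day 0 ranged -0.11 to 0.86 for Notch3 and -0.026 to 0.37 for Hes1. Against plastic it ranged -0.24 to 0.16 for Notch2, -0.033 to 0.26 for Jag1, -0.45 to 1.80 for Dll4 and -0.13 to 0.29 for Hes1, and against HSC alone in Matrigel -0.31 to 0.086 for Notch2. In HSC alone in Matrigel it ranged -0.38 to 0.072 for Hey1 against day 0, and -0.073 to 0.20 for Notch2 and -0.45 to 0.38 for Heyl against plastic. Between HSC and ICO in co-culture Notch1 ranged -0.083 to 0.21 and Notch3 -0.76 to 0.18. The difference of effects ranged -0.12 to 0.26 for Notch2, -0.18 to 0.21 for Hes1, -0.48 to 0.79 for Hey1 and -2.25 to 1.18 for Heyl.

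Libraries that share a replicate number had correlations of their deviations between -0.446 and 0.103 over 9 comparisons. In the labels co-cultured HSC and co-cultured ICO carry the same codes, D1 to D3, and these pairs had 0.0634, 0.0661 and -0.0729. Such values, from deviations within groups of 3, cannot tell whether libraries of the same code came from the same gel. The numbers were taken as names in the main fits. With the replicate number as a block, members called were 7 instead of 8 in co-culture against day 0 (Notch2, adjusted p = 0.0554), 3 instead of 4 alone in Matrigel against plastic (Jag2, adjusted p = 0.082) and 3 instead of 4 for the difference of effects (Nrarp, adjusted p = 0.0531). Depth limits Dll4, Hey1 and Heyl in ICO, Jag2 at day 0 and on plastic, and Nrarp on plastic, all with few or no counts per library.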

Other observations

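Dll1, a Delta-like ligand named after its values were seen, had 9.68 ± 3.19 CPM in co-cultured HSC, 3.98 ± 4.28 CPM in HSC alone in Matrigel, 0.932 ± 0.818 CPM on plastic and 1.08 ± 0.772 CPM at day 0 (SD, n = 3 each). ICO had 17.8 ± 3.41 CPM in co-culture and 11.5 ± 4.22 CPM alone. The organoid share would give 44.7% to 65.1% of the Dll1 level in co-cultured HSC and 29.5% to 77.9% in HSC alone in Matrigel. For Neurl3 the share would give 57.9% to 99.3% of the low level in co-cultured HSC and 2.97% to 19.3% of the level in HSC alone in Matrigel. For Psen2 it would give 12.9% to 24.1% and 0.450% to 8.16%.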
